A study of Mus musculus with 5 samples.

Results

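The tricarboxylic acid cycle enzymes described here are 9 genes taken by name from the deposited table, which writes them in capitals as CS, IDH3A, IDH3B, IDH3G, OGDH, DLST, SUCLG1, FH1 and MDH2, out of 38924 genes in all. They are mitochondrial cycle enzymes or their subunits, with succinate dehydrogenase left aside as a member of the respiratory chain. All 9 names matched 1 row each, and all 9 passed the minimum mean value of 10 and were tested. RNA was measured in germinal center B cells that had been sorted from the spleens of 12-week-old mice at day 7 after immunization with sheep red blood cells. The WT group is Cg1-Cre (n = 3 libraries) and the DKO group is relbfl/flnfkb2fl/flCg1-Cre from littermates (n = 2), so both groups carry the Cre transgene and only the DKO group carries the floxed alleles of Relb and Nfkb2. Cg1-Cre is driven from the IgG1 constant region locus, so it acts in B cells once they transcribe it, and recombination need not be complete in every cell. The labels do not say whether each library came from 1 mouse, so p-values here measure the spread between these libraries.

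In the cycle, citrate synthase joins acetyl-CoA from pyruvate or fatty acids to oxaloacetate. Isocitrate dehydrogenase and the alpha-ketoglutarate dehydrogenase complex then release carbon dioxide and make NADH. The remaining steps, through succinyl-CoA, fumarate and malate, give back oxaloacetate, and the NADH feeds the respiratory chain. Germinal center B cells divide rapidly, which draws on mitochondria for energy and for building blocks. RELB and the p52 product of Nfkb2 form the main dimer of the alternative NF-κB pathway.

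The 9 genes lie on 9 different chromosomes in the GENCODE annotation of GRCm38, another build than the mm9 the submitters' processing notes name. Promoter windows of 250 bases before the transcription start were found for 8 of the 9 in the RefSeq table of GRCm38.p6, and Idh3a had none there. These genes had 13 windows, 6 of them of Ogdh and partly overlapping. Of 6 motifs searched on both strands, the CCAAT box (CCAAT) was in a window of 4 of these 8 genes (Cs, Idh3b, Ogdh and Fh1). Counted by window, it was in 7 of the 13 and in 33.8% of all 32544 windows. The GC box GGGCGG was in windows of 5 genes (Cs, Ogdh, Dlst, Fh1 and Mdh2), in 6 of the 13 windows, against 33.0% of all windows. The other motifs were rarer. The ETS core CCGGAAG was in the window of Idh3g (6.95% of all windows) and the E-box CACGTG in 3 of the 6 windows of Ogdh (6.03%). The NF-κB consensus was in 1 of the 6 windows of Ogdh (3.92%) and the NRF1 core in none of the members (0.784%). These letter matches are a description of the windows and not evidence of binding. The 3 windows below are shown because Cs and Idh3b followed the pattern most members share across libraries while Suclg1 departed from it most. Mdh2 and Idh3g also lay near that pattern and had no CCAAT box, while Fh1 had the box and lay farther away. They read 5′ to 3′ toward the start site, with CCAAT or its complement ATTGG in capitals, and the window of Suclg1 held none of the 6 motifs.
Cs (chr10:128337477-128337726, plus strand): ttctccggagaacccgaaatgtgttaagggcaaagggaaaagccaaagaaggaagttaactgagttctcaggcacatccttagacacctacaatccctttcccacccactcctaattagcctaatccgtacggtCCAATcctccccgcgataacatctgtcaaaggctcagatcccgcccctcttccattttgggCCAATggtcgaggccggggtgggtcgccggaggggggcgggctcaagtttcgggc
Idh3b (chr2:130284452-130284701, minus strand): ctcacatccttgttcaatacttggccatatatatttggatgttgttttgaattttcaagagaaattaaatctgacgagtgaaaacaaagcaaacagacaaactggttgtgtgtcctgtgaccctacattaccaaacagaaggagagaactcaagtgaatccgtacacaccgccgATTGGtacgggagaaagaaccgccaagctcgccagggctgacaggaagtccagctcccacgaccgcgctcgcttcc
Suclg1 (chr6:73248255-73248504, plus strand): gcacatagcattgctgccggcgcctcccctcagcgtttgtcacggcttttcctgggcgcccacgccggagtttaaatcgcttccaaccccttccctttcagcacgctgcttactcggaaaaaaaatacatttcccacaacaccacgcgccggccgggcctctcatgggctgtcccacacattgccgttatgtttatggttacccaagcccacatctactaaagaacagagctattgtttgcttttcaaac

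Germinal center identity and the targeted genes were checked first. All 12 germinal center and B cell markers were above 0 in every library, with summed levels from 158466 to 239273 normalized counts (reads divided by the authors' factor for each library). For Relb, WT replicates 1 to 3 gave 136, 171 and 117 and DKO replicates 1 and 2 gave 56.9 and 10.7. For Nfkb2 they gave 657, 601 and 445 against 298 and 73.5. DKO replicate 2 thus had the lower level of both targets, at 7.59% of the WT mean for Relb where DKO replicate 1 had 40.2%. Library totals ran from 34.0 to 57.6 M reads, of which 15.4 to 17.7 M lay outside the mitochondrial genome. T cell markers (13 genes) summed to 1517, 3020 and 1556 in WT and 2265 and 1415 in DKO. Of these sums Cd2 alone gave 1342, 1391 and 1468 in WT and 1519 and 1229 in DKO. The rest of the T cell list thus differed more between libraries than the sums do. Cd8b1 was at 0 in WT replicate 3 and Cd3g at 0 in DKO replicate 2. Naive or follicular B cell markers (6 genes) summed to 4355, 16627 and 7832 against 14360 and 6686. NK cell markers (6 genes) summed to 16.1, 363 and 0.961 against 94.6 and 26.4, with 5 of 6 at 0 in WT replicate 3. Plasma cell markers summed to between 6837 and 11333 over the 5 libraries, myeloid markers to between 329.6 and 1442, and erythroid markers to between 14.4 and 97.2. WT replicate 2 and DKO replicate 1 held the most transcripts of the T cell, NK cell and naive or follicular B cell markers.

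None of the 9 cycle enzymes differed between DKO and WT beyond the spread between libraries. In limma's test the adjusted p ran from 0.877 to 0.95 over the 9, 0 passed 0.05, and over all genes 0.0% of 13242 passed. At an unadjusted p under 0.05 there were 0 of 9 members, against 6.06% of all genes in limma. On the recovered reads edgeR called 0.0% of genes at the adjusted threshold and 5.65% at an unadjusted p under 0.05, and DESeq2 called 0.219% and 6.77%. Neither tool called a member at the adjusted threshold or had one at an unadjusted p under 0.05. Values of the 2 genotypes overlapped in all 9, while they did not overlap in 23.4% of all genes tested. The log2 fold change (DKO over WT, on the log2(value + 1) scale) was below 0 for 7 members and above 0 for 2, Suclg1 and Fh1, where 50.0% of all genes were below 0. The median over the members was −0.19, and the median over all genes tested was 0.00. Of the 3098 genes with a mean of at least 1000 normalized counts, 56.1% were below 0, with a median of −0.04. Standard errors for the members lay between 0.19 and 0.30. Less transcript per cell and fewer cells with the transcript cannot be told apart in these bulk libraries.

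**Figure D1:**
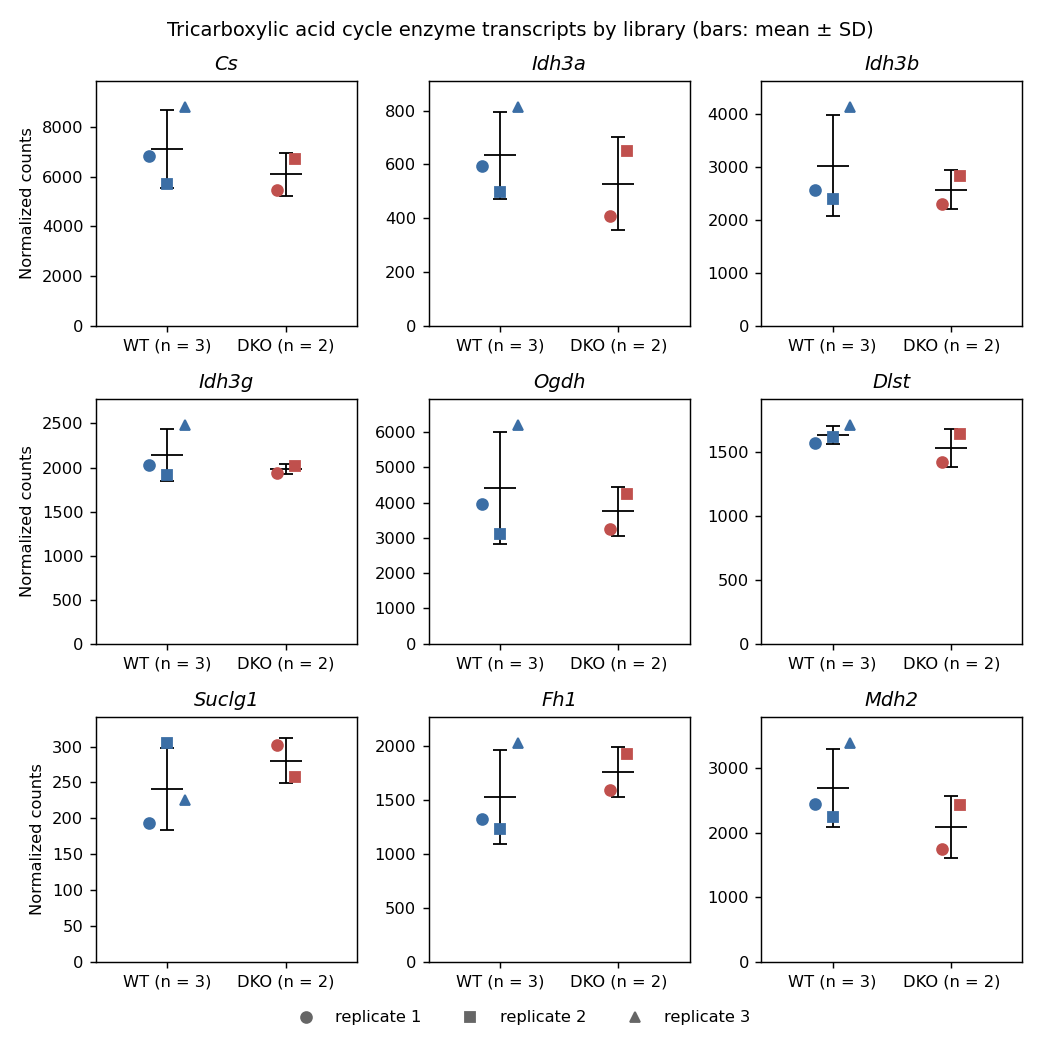
Normalized counts (y axes, from 0) of the 9 enzyme transcripts in each library, with WT in blue and DKO in red, marker shape giving the replicate number and black bars the mean ± SD. The highest point is WT replicate 3 in 8 of the 9 panels, and the DKO points overlap the WT range in every panel.

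Cs encodes citrate synthase, which makes the entry step of the cycle. WT replicates 1 to 3 gave 6855, 5699 and 8801 normalized counts, and DKO replicates 1 and 2 gave 5478 and 6708. DKO replicate 1 was the lowest of the 5 libraries and DKO replicate 2 lay inside the WT range. The log2 fold change was −0.21 ± 0.24 (SE), with a 95% interval of −0.74 to 0.33 (adjusted p = 0.912, limma). A close copy, Csl, shares 1522 bases at 91.9% identity with Cs transcripts, and its own row ranged from 0 to 5.77 normalized counts. A further match, Gm48254, shares 469 bases at 92.1% identity and was not analysed here.

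The NAD-dependent isocitrate dehydrogenase is built from a catalytic alpha subunit (Idh3a) with beta (Idh3b) and gamma (Idh3g) subunits. For Idh3a the WT libraries gave 594, 496 and 813 and the DKO libraries 406 and 651, with an SD of 162 in WT and 173 in DKO. Its log2 fold change was −0.27 ± 0.30, with an interval of −0.95 to 0.40 (adjusted p = 0.907, limma). For Idh3b WT gave 2557, 2384 and 4121, and DKO 2301 and 2828. Here WT replicate 3 stood far above the other 4 libraries, and the log2 fold change was −0.20 ± 0.27. Exons of Idh3b overlap those of Nop56 on the opposite strand in GENCODE, and since the use of strand in counting is not given in the sources used here, reads of these genes may be mixed. Idh3g, with the narrowest DKO pair of the 3 subunits, gave 2033, 1912 and 2479 against 1943 and 2019. Its log2 fold change was −0.10 ± 0.20, with an interval of −0.56 to 0.35.

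Ogdh and Dlst encode the dehydrogenase and the succinyl-transferring core of the alpha-ketoglutarate dehydrogenase complex. Ogdh gave 3963, 3124 and 6195 for the WT libraries against 3262 and 4245 for DKO. WT replicate 3 was again the highest and WT replicate 2 the lowest, and the log2 fold change was −0.19 ± 0.29. Dlst, which varied least of the 9, gave 1573, 1613 and 1708 against 1423 and 1637. Its highest library exceeded its lowest 1.2-fold, where the same ratio for Idh3a, the most variable, was 2.0. Its log2 fold change was −0.09 ± 0.19, with an interval of −0.53 to 0.34 (adjusted p = 0.95, limma).

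Suclg1 encodes the alpha subunit shared by both forms of succinyl-CoA ligase, the step of the cycle that makes a nucleoside triphosphate. It had the lowest counts, 180 to 345 recovered reads per library, with values of 193, 304 and 226 for WT against 302 and 258 for DKO. WT replicate 2 and DKO replicate 1, which were low for most other members, were its highest libraries. The log2 fold change was 0.24 ± 0.29, with an interval of −0.42 to 0.90 (adjusted p = 0.917, limma).

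Fh1 encodes fumarase, which hydrates fumarate to malate. Its values were 1323, 1236 and 2029 for WT against 1595 and 1927 for DKO. Both DKO libraries lay above WT replicates 1 and 2 and below WT replicate 3. The log2 fold change was 0.23 ± 0.25, with an interval of −0.34 to 0.81 (adjusted p = 0.907, limma). Mdh2 encodes the mitochondrial malate dehydrogenase that regenerates oxaloacetate, and it had the smallest p of the members. Its WT libraries gave 2454, 2246 and 3388, and its DKO libraries 1753 and 2431. DKO replicate 1 was below all WT libraries and DKO replicate 2 between WT replicates 1 and 2. The log2 fold change was −0.36 ± 0.25, with an interval of −0.92 to 0.20 (unadjusted p = 0.176, adjusted p = 0.877, limma).

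In all 9 members the fold between the highest and the lowest WT library exceeded the fold between the genotypes, as it did in 83.2% of all genes tested. WT replicate 3 was the highest library for 8 of the 9, Suclg1 being the exception. It was the highest for 23.0% of all genes tested and for 34.2% of the 3098 genes with a mean of at least 1000 normalized counts. DKO replicate 1 was the lowest for 5 members, against 21.7% of all genes tested and 28.9% of those with a mean of at least 1000. The median deviation of the members from their own mean over libraries was −0.02, −0.21 and 0.41 (log2) in WT replicates 1 to 3 and −0.27 and 0.03 in DKO replicates 1 and 2. The median over all genes tested deviated by at most 0.03 in any library. Mitochondrial ribosomal RNA, as a share of all reads, ran from high to low as 70.9% in WT replicate 3, 62.4% in WT replicate 1, 60.6% in DKO replicate 2, 51.6% in WT replicate 2 and 47.0% in DKO replicate 1. Only Cs and Mdh2 among the members ranked the libraries in this same order, and how many of all genes do so was not counted. The libraries with the lowest median for the members, WT replicate 2 and DKO replicate 1, were those richest in T cell and naive B cell markers. The part of mitochondrial ribosomal RNA or of other lymphocytes in the members' pattern was not tested.

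**Figure D2:**
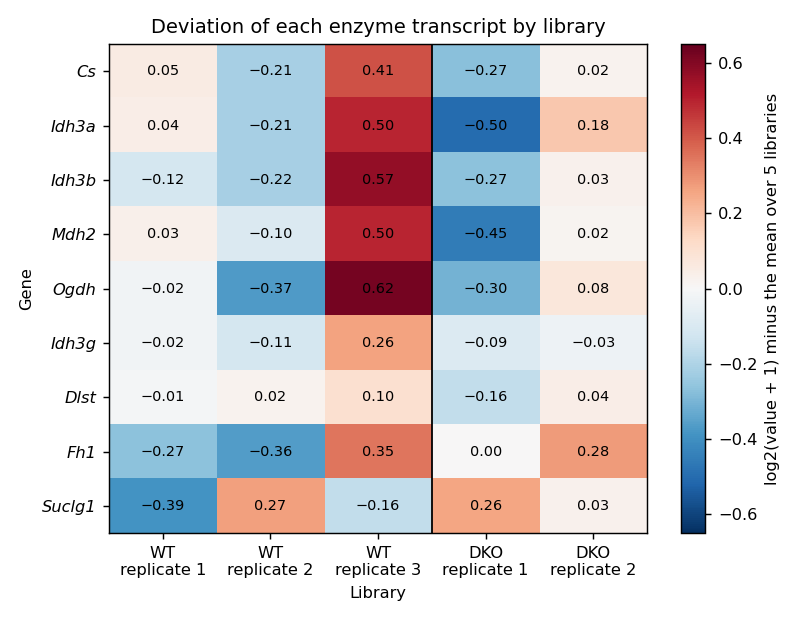
Colour and printed number give log2(value + 1) of each gene (rows) minus its mean over the 5 libraries (columns), with a line between WT and DKO. The WT replicate 3 column is positive in 8 of 9 rows, and Suclg1 shows the opposite signs to most genes in WT replicate 2, WT replicate 3 and DKO replicate 1.

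The 2 DKO libraries stood differently against the WT range. In DKO replicate 2, which had the lowest Relb and Nfkb2, all 9 members were within the WT range, where 57.0% of all genes tested were. In DKO replicate 1, 5 members (Cs, Idh3a, Idh3b, Dlst and Mdh2) were below the WT range and 4 within it, and 26.4% of all genes tested were below. Without DKO replicate 1 the median over the members was −0.00 and 5 of 9 were below 0, with Idh3a at 0.067 and Dlst at 0.0062. Without WT replicate 3 the median was 0.0066 and 4 of 9 were below 0, with Idh3b at 0.047, Ogdh at 0.081 and Idh3g at 0.0066. Mdh2 and Cs were below 0 with any 1 library left out, from −0.60 to −0.13 and from −0.36 to −0.04. Fh1 and Suclg1 were above 0 likewise, from 0.10 to 0.45 and from 0.09 to 0.42.

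**Figure D3:**
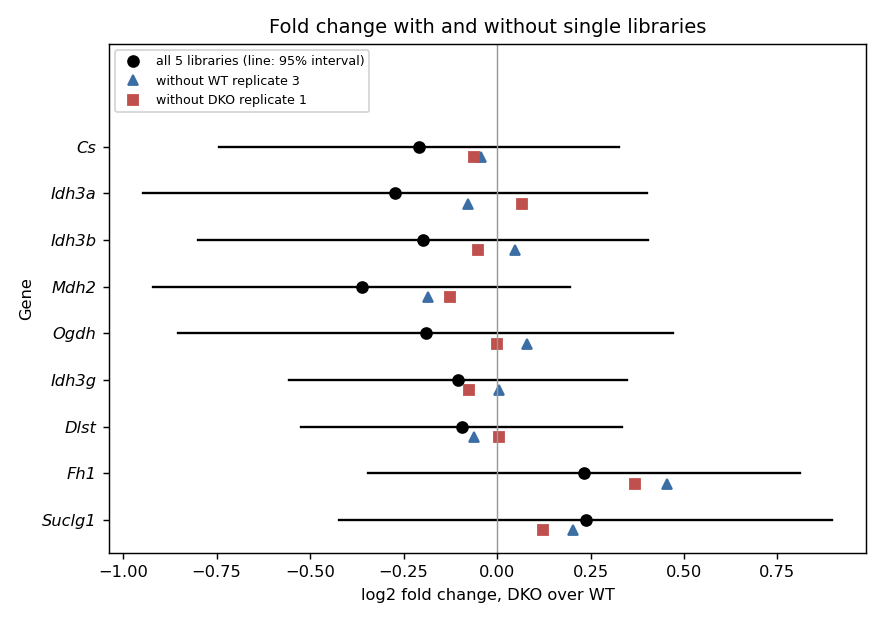
Points give the log2 fold change of DKO over WT (x axis) of each gene with all 5 libraries (black, with the 95% interval from limma as a line), without WT replicate 3 (blue triangles) and without DKO replicate 1 (red squares). Every interval includes 0, and leaving out either library moves the 7 genes below 0 toward or across it.

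Likeness between genes was measured as the root mean square difference of their centred log2 profiles over the 5 libraries, where 0 means identical profiles. The closest pairs were Idh3b with Ogdh (0.09) and Idh3a with Mdh2 (0.09), and the most distant was Ogdh with Suclg1 (0.54). Cs lay nearest the median profile of the members (0.03) and Suclg1 farthest (0.44). That profile is built from the 9 members, so their closeness to it is partly fixed by construction. Among the 8725 genes with a mean of at least 100, whose median distance from it was 0.31, and outside the set, Ptbp1 (0.03), Cct2 (0.03), Hdgf (0.04), Mta2 (0.04) and Hist1h3i (0.04) had the profiles most like that median. Ptbp1, a splicing regulator, gave 9297, 8257 and 13252 for WT against 8109 and 9840 for DKO. Cct2, a subunit of the cytosolic chaperonin, was at 5375, 4757 and 7453 against 4590 and 5922. Hist1h3i belongs to a family of near-identical histone genes, so its counts are uncertain.

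Ratios of subunits within a library do not depend on its scaling. The log2 ratio of Idh3b to Idh3a was 2.10, 2.26 and 2.34 for WT against 2.50 and 2.12 for DKO, a difference of 0.07 (exact two-sided permutation test, p = 0.6). That of Idh3g to Idh3a was 1.77, 1.94 and 1.61 against 2.25 and 1.63, a difference of 0.17 (exact permutation p = 0.6). DKO replicate 1, where Idh3a was lowest, had the highest value of both ratios and DKO replicate 2 lay within the WT range. That of Dlst to Ogdh was −1.33, −0.95 and −1.86 against −1.20 and −1.37, a difference of 0.10 (exact permutation p = 0.9). With 3 against 2 libraries the smallest p this test can give is 0.1, so it could not pass 0.05. After Benjamini-Hochberg adjustment over the 3 ratios each exact permutation p was 0.9.

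Levels were compared between genes per kb of exon, with exon lengths from the basic GENCODE transcripts. Cs was the highest in all 5 libraries, at 2433 ± 536 (SD, n = 3) normalized counts per kb in WT and 2082 ± 297 (n = 2) in DKO. Idh3b (1869 ± 592 in WT), Mdh2 (1852 ± 418) and Idh3g (1609 ± 225) followed, and neighbours in this order changed places in some libraries: Idh3b exceeded Mdh2 in 3 of 5 and Mdh2 exceeded Idh3g in 4 of 5. Ogdh (995 ± 357 in WT) was below Idh3g and above Fh1 in all 5. Fh1 (580 ± 165) and Dlst (590 ± 25.1) could not be ordered, with Fh1 higher in 3 of 5. Idh3a (246 ± 62.8) and Suclg1 (159 ± 37.8) were below the other 7 in every library, with Idh3a above Suclg1 in 3 of 5. Idh3a was thus the least abundant transcript of its enzyme in each library. With exon lengths from all annotated transcripts Mdh2 moved from the third place to the fifth and the other members moved by at most 1 place.

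**Figure D4:**
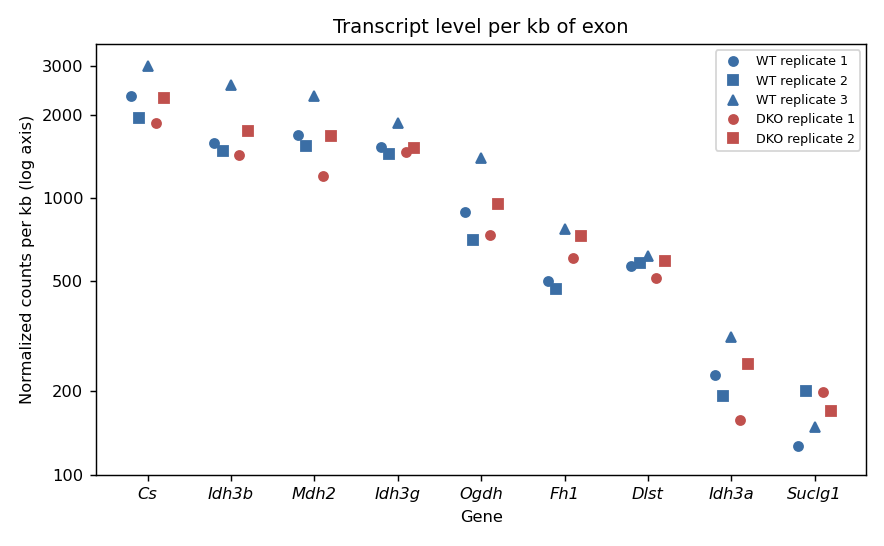
Normalized counts per kb of exon (log axis) of the 9 genes, ordered by their mean over the 5 libraries, with WT in blue, DKO in red and marker shape for the replicate. The points of Cs lie above those of every other gene when compared library by library, and those of Idh3a and Suclg1 lie below the other 7.

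Genes that supply, regulate or complete the cycle were described from 8 lists with 63 tested genes. In limma 0 of the 63 passed over all genes. At an unadjusted p under 0.05, 2 were lower in DKO and 0 higher, where 2.37% and 3.69% of all genes were. The DKO values lay wholly below WT in 11 of 63 (17.5%) and wholly above in 2 (3.17%), where 11.0% and 12.5% of all genes did. WT replicate 3 was the highest library for 24 of the 63 (38.1%). It was so for 23.0% of all genes tested, 28.8% of those with a mean of at least 100 and 34.2% at 1000 or more.

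The remaining cycle enzymes and subunits (9 genes, among them aconitase, succinate dehydrogenase and the other succinyl-CoA ligase subunits) were lower in 8 of 9 by their fold change, with a median of −0.20, and none passed. Sdhd, a membrane anchor of succinate dehydrogenase, gave 838, 643 and 798 for WT against 413 and 514 for DKO, without overlap. Its log2 fold change was −0.71 ± 0.23 (adjusted p = 0.823, limma). Sdhb, the iron-sulfur subunit, was at 692, 688 and 646 against 505 and 548 (−0.36 ± 0.21). Idh2, the NADP-dependent mitochondrial isocitrate dehydrogenase, was at 260.1, 207 and 298 against 177 and 190.0 (−0.46 ± 0.28). In these 3 genes, named for the smallest p of their list, both DKO libraries were below every WT library. That was so in 11.0% of all genes tested and in none of the 9 members, all of which are named. Whether the 3 differ from the members was not tested.

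Pyruvate dehydrogenase, its kinases and its phosphatases control the entry of pyruvate carbon. Of 11 genes 10 were tested, 6 below and 4 above 0, with a median of −0.07. Pdk3, a kinase that inhibits the complex, was at 704, 820 and 904 against 524 and 767 (−0.35 ± 0.24), and Pdha1, a catalytic subunit, at 860, 885 and 943 against 647 and 881 (−0.25 ± 0.22). In both genes DKO replicate 1 was below the WT range and DKO replicate 2 within it, and without DKO replicate 1 the log2 fold changes were −0.07 for Pdk3 and −0.02 for Pdha1. Dlat, the acetyltransferase subunit, gave 1173, 1171 and 1391 for WT against 1028 and 1090 for DKO, without overlap (−0.23 ± 0.20, and −0.15 without WT replicate 3). Pdk4 was at 0 in every library and was not tested. Genes listed for lipoate synthesis and attachment, which Dlst needs for its function, were below 0 in 5 of 8 (median −0.22). In this list Ndufab1, the mitochondrial acyl carrier protein, gave 338, 257 and 315 for WT against 384 and 511 for DKO, without overlap. Its difference was 0.55 ± 0.26 on the log2 scale (adjusted p = 0.836, limma), and 0.35 without DKO replicate 2.

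Cytosolic counterparts of cycle enzymes were below 0 in 4 of 4 tested (median −0.22). Acly, which cleaves exported citrate to acetyl-CoA, was at 2106, 2730 and 2313 against 1793 and 2086 (−0.29 ± 0.20), and Mdh1, the cytosolic malate dehydrogenase, at 1986, 1498 and 2112 against 1164 and 1809 (−0.35 ± 0.26). The Mdh1 value was −0.03 without DKO replicate 1 and −0.66 without DKO replicate 2. For Acly the smallest values were −0.18 without DKO replicate 1 and −0.19 without WT replicate 2. Of the genes through which intermediates enter and leave the cycle 6 of 7 tested were below 0 (median −0.21). Got1, the cytosolic aspartate aminotransferase of the malate-aspartate shuttle, gave 890, 827 and 926 for WT against 481 and 549 for DKO. Both DKO libraries were below every WT library, and the log2 fold change was −0.78 ± 0.21, with an interval of −1.24 to −0.31 (unadjusted p = 0.0047, adjusted p = 0.823, limma). Mitochondrial carriers were below 0 in 6 of 9 (median −0.20), with the phosphate carrier Slc25a3 at −0.33 ± 0.25 and the alpha-ketoglutarate carrier Slc25a11 at −0.26 ± 0.24. Without WT replicate 3 these were −0.10 and −0.09, and without DKO replicate 1 Slc25a3 was at −0.21. Dehydrogenases related to those of the cycle went the other way in 4 of 5 tested (median 0.21). Regulators of mitochondrial biogenesis were split, 6 below and 5 above 0 (median −0.00). The coactivator Ppargc1b was at 161, 104 and 84.6 against 192 and 159 (0.63 ± 0.36), and the mitochondrial DNA packaging factor Tfam at 683, 1012 and 669 against 600 and 620.3 (−0.34 ± 0.25, and −0.15 without WT replicate 2).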

How the data were processed

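The authors deposited 1 table with a normalized signal per gene for 3 WT and 2 DKO libraries. Its values are read counts divided by 1 factor per library: at least 99.99% of the values above 0 in each library were whole multiples, within 0.01, of the smallest value, which gave back whole reads. Per the submitters' processing notes, CASAVA 1.8.2, TopHat2 2.0.4, Cufflinks 2.0.2 and build mm9 were used; for the counting tool, annotation, strand and origin of the factors the sources used here give nothing. Per the labels' protocols, RNA was amplified before sequencing, so reads are not independent molecules.

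Genes with a mean value of at least 10 (13242) were tested across genotypes with limma 3.58.1 in R 4.3.3, two-sided, on log2(value + 1), with the variance modelled as a trend of the mean. P-values were Benjamini-Hochberg adjusted over all genes tested, with a threshold of 0.05. The fit had 3 residual and 5.92 prior degrees of freedom. The script was tested on simulated data. Alternatives were the count models of edgeR (4.0.16) and of DESeq2 (1.42.0) run on recovered reads, other pseudocounts, minimum values and scalings, the replicate number as a block, a T cell marker covariate and leaving out libraries. Members and lists were chosen with earlier results of these data known. All members are named; genes named from a list are among the 3 with its smallest p, except Pdk4, chosen after its values were seen. Marker names that were repeated or absent (Cr2, Ighd and the beta-globin genes) were left out of the sums. Of the 9 members, only Cs had transcripts that matched another gene over at least 100 bases at 90% identity (BLAST).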

Additional observations from a re-analysis of the deposited data

How the results depend on the processing

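The 7 to 2 split of members below and above 0 was the same under TMM, quantile and non-mitochondrial scaling, edgeR, DESeq2 and the T cell covariate. It was also the same with WT replicate 2 and DKO replicate 1 both left out. Other minimum values left it the same, but these cannot change a gene's fold change in limma. Other pseudocounts (0.5 and 10) also left it the same, and they are small beside the members' values. The members' median moved from −0.19 to −0.12 both under non-mitochondrial scaling and with the T cell covariate. Non-mitochondrial scaling also moved the median over all genes tested, from 0.00 to 0.07, while with the covariate that median was −0.00. With edgeR and with DESeq2 the members' median was −0.23, beside −0.04 and −0.03 over all genes. No member passed 0.05 under any of these or with a library left out. The range with 1 library left out was 4 to 7 for members below 0, −0.35 to 0.0066 for their median, and 0 to 1 for genes called over all. In the same way the ratio differences ranged from −0.12 to 0.26 (Idh3b to Idh3a), −0.14 to 0.48 (Idh3g to Idh3a) and −0.14 to 0.31 (Dlst to Ogdh). Fold changes of Idh3b ranged from −0.35 to 0.047, of Idh3g from −0.18 to 0.0066, of Ogdh from −0.41 to 0.081, of Idh3a from −0.61 to 0.067 and of Dlst from −0.20 to 0.0062. DESeq2 called 29 genes over all and the T cell covariate 3; the cause was not tested. The replicate block called 36 genes, with 4 members below 0 and a median of 0.0066, and gave Idh3b at 0.047, Idh3g at 0.0066 and Ogdh at 0.081. These estimates equal those without WT replicate 3, since that number exists only in WT. The sample titles give same-numbered libraries no link beyond the number. Their deviations from the group means correlated at 0.00 for replicate 1 and −0.28 for replicate 2 across genes. With 2 DKO libraries the deviations of one mirror those of the other, so these correlations cannot decide whether the numbers carry a pairing. Fits without a DKO library assume that the lone one varies as WT does. With 5 libraries, the intervals allow changes of the members that these data cannot resolve.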
